A study of Mus musculus with 9 samples.

Results

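Hmgcs1, Mvd, Idi1, Fdps, Fdft1, Sqle, Lss and Cyp51 encode 8 enzymes of cholesterol synthesis, and they were followed in RNA sequencing of mouse substantia nigra pars compacta. The genes were chosen by symbol, 8 of the 27339 genes in the table, with earlier results of these data known, so their levels and fold changes are a description and the tests on them carry no independent weight. The working name of the set also spoke of uptake, but none of the 8 takes up cholesterol, so uptake genes are described only among the neighbours of the pathway. The 9 libraries fell into 3 groups of 3: MPTP plus an MCT ketogenic diet (MPTPKD), MPTP without the diet (MPTP), and controls (Ctrl). MPTP is converted in the brain to a toxin that dopamine neurons take up, and the diet supplies fat of medium chain length from which the liver makes ketone bodies. The sources used here give no strain, age or toxin dose, and none of the 9 libraries is labelled as diet without the toxin. Nothing in the labels ties a library to 1 animal, so the p-values below reflect the spread among libraries, which may be technical.

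The brain makes its own cholesterol, because lipoproteins of the blood do not cross the blood-brain barrier, and most of its cholesterol lies in myelin. Acetyl units are joined and reduced to mevalonate, mevalonate is turned into isoprene units, and these are condensed to squalene, which is oxidised, closed into lanosterol and trimmed to cholesterol. The transcription factor SREBP2 switches on nearly every gene of this route together when the sterol content of the endoplasmic reticulum is low. In adult brain the route is active in astrocytes and oligodendrocytes. In these bulk samples fewer cells of a type and less RNA per cell cannot be told apart.

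The promoters of 3 of the genes are shown because the members are known as joint targets of SREBP2, and sequence lets a reader see what they have in common at the start site. RefSeq windows from 250 bases before to 50 bases after the start (GRCm38.p6) were matched for 5 of the 8 genes, Hmgcs1, Mvd, Idi1, Lss and Cyp51. The Hmgcs1 window lies at chr13:119690101-119690400 (plus strand), the Mvd window at chr8:122443373-122443672 (minus strand) and the Cyp51 window at chr5:4104648-4104947 (minus strand). Each is printed 5′ to 3′ on the strand of the gene, with capitals marking TCACNCCAC, a form of the sterol regulatory element, and the NF-Y box CCAAT on either strand.
Hmgcs1: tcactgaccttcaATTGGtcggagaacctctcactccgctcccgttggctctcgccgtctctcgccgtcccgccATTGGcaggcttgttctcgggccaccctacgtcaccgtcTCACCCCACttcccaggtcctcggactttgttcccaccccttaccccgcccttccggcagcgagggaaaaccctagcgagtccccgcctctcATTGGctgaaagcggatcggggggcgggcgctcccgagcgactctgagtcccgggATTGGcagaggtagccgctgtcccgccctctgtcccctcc
Mvd: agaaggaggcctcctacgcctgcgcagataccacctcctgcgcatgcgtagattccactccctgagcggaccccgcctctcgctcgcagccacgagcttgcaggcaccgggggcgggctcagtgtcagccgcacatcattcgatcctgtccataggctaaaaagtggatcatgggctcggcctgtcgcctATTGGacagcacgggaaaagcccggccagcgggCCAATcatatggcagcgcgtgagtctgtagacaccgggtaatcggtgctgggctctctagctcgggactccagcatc
Cyp51: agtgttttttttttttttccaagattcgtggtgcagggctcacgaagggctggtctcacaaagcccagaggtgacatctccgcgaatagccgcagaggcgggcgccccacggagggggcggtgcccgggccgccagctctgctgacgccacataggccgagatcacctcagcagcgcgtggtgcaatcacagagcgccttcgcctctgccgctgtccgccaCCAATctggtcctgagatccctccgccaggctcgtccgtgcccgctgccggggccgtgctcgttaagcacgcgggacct
The letters TCACNCCAC or their reverse complement GTGGNGTGA occurred in 1 of the 5 windows, that of Hmgcs1, and in 1.24% of all 32851 promoter windows of the same length. CCAAT or ATTGG occurred in all 5 windows, with 4 matches in Hmgcs1, 2 in Mvd, 2 in Idi1, 1 in Lss and 1 in Cyp51, against 37.4% of all windows. The Sp1 box GGGCGG or CCGCCC, left in lower case, was also in all 5 windows and in 35.7% of all windows. The E-box CACGTG was in none of the 5 and in 7.15% of all windows. No match overlapped one of another motif. A match describes letters in this window and says nothing of binding. Other forms of the sterol regulatory element were not searched for, so a window without a match may still hold one.

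The libraries held 33.2 to 40 M counted reads, and the 8 genes had 616 to 11031 reads in a library. Levels are given as CPM, the count of a gene per M counts after TMM scaling of the totals. All 7 dopamine neuron markers were detected in every library, and their sum lay at 350 to 440 CPM in MPTPKD, 359 to 437 CPM in MPTP and 493 to 585 CPM in Ctrl. Th had log2 fold changes of -0.49 for MPTPKD against Ctrl and -0.48 for MPTP against Ctrl, Slc6a3 had -0.52 and -0.49, and Ddc had -0.35 and -0.39, with none called (adjusted p under 0.05 by edgeR). Markers of neighbouring tissue differed between libraries. The 5 choroid plexus markers, of which Ttr and Clic6 had the highest FPKM, summed to 1194 CPM in Ctrl 3 and to 16.2 to 91.1 CPM in the other libraries. The 3 raphe serotonin markers, of which Tph2 and Slc6a4 had the highest FPKM, summed to 22.1 CPM in MPTPKD 1 and 17.7 CPM in MPTP 1, against 40.5 to 170 CPM in the others.

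Per length of transcript, in FPKM, the level among the 8 genes was highest for Hmgcs1, early in the route, and lowest for Lss, at ring closure. Hmgcs1 averaged 76.8 ± 2.73 FPKM (fragments per kilobase of transcript and M fragments) in MPTPKD, 81.1 ± 5.99 FPKM in MPTP and 81.8 ± 1.89 FPKM in Ctrl (SD, n = 3 each). Fdps and Fdft1 followed, at a mean of 35.6 and 32.7 FPKM over the 9 libraries, and then Sqle, Cyp51 and Idi1 at 26.3, 22.4 and 20.6 FPKM. The difference in level between Fdps and Fdft1 held in Ctrl, with 40 ± 2.24 and 34.7 ± 0.200 FPKM, but their libraries overlapped in MPTPKD and MPTP. Mvd and Lss were lowest, at means of 10.9 and 6.04 FPKM. All 8 passed the minimum of 0.5 FPKM.

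Against both other groups the diet group showed slightly lower levels of several of the enzymes, and no single gene passed the test. All 8 log2 fold changes of MPTPKD against Ctrl were below 0 (50.5% of all 14949 genes tested), with a median of -0.15, or -9.87%, where the median of all genes was -0.0015. Of MPTPKD against MPTP, 6 of 8 were below 0 (49.8% of all genes), with a median of -0.065, beside 0.00060 for all genes. Of MPTP against Ctrl, 7 of 8 were below 0 (50.4% of all genes), with a median of -0.033, beside -0.00090 for all genes. Without Ctrl 3, where the choroid plexus markers were high, the medians were -0.17 for MPTPKD against Ctrl and -0.070 for MPTP against Ctrl. The 3 comparisons share libraries in pairs and are not independent of each other.

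Counted over the set, edgeR's quasi-likelihood test with Benjamini-Hochberg adjustment over all 14949 genes called 0 of the 8 in each comparison. Of all genes it called 0% in MPTPKD against MPTP, 0% in MPTPKD against Ctrl and 0.0134% in MPTP against Ctrl. DESeq2 and limma on log2 FPKM called 0 of the 8 as well, and the lowest adjusted p of any member in any setting was 0.387, 0.172 and 0.573 in those comparisons. Genes with an unadjusted p under 0.05 made up 7.78% of all genes in MPTPKD against MPTP, 6.73% in MPTPKD against Ctrl and 5.36% in MPTP against Ctrl, and DESeq2 called 19, 16 and 14 genes in these comparisons. Among the members at that unadjusted p, 2 were lower in MPTPKD against MPTP (4.02% of all genes), 3 in MPTPKD against Ctrl (3.36%) and 1 in MPTP against Ctrl (2.69%). None was higher (3.76%, 3.36% and 2.68% of all genes). All libraries of the first group lay below all of the second for 2 members in MPTPKD against MPTP (7.1% of all genes), for 5 in MPTPKD against Ctrl (6.4%) and for 2 in MPTP against Ctrl (5.41%). They lay above for no member (6.64%, 6.28% and 5.14% of all genes). Since the genes were chosen with such results in view, these counts describe the set and are not evidence for it.

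**Figure D1:**
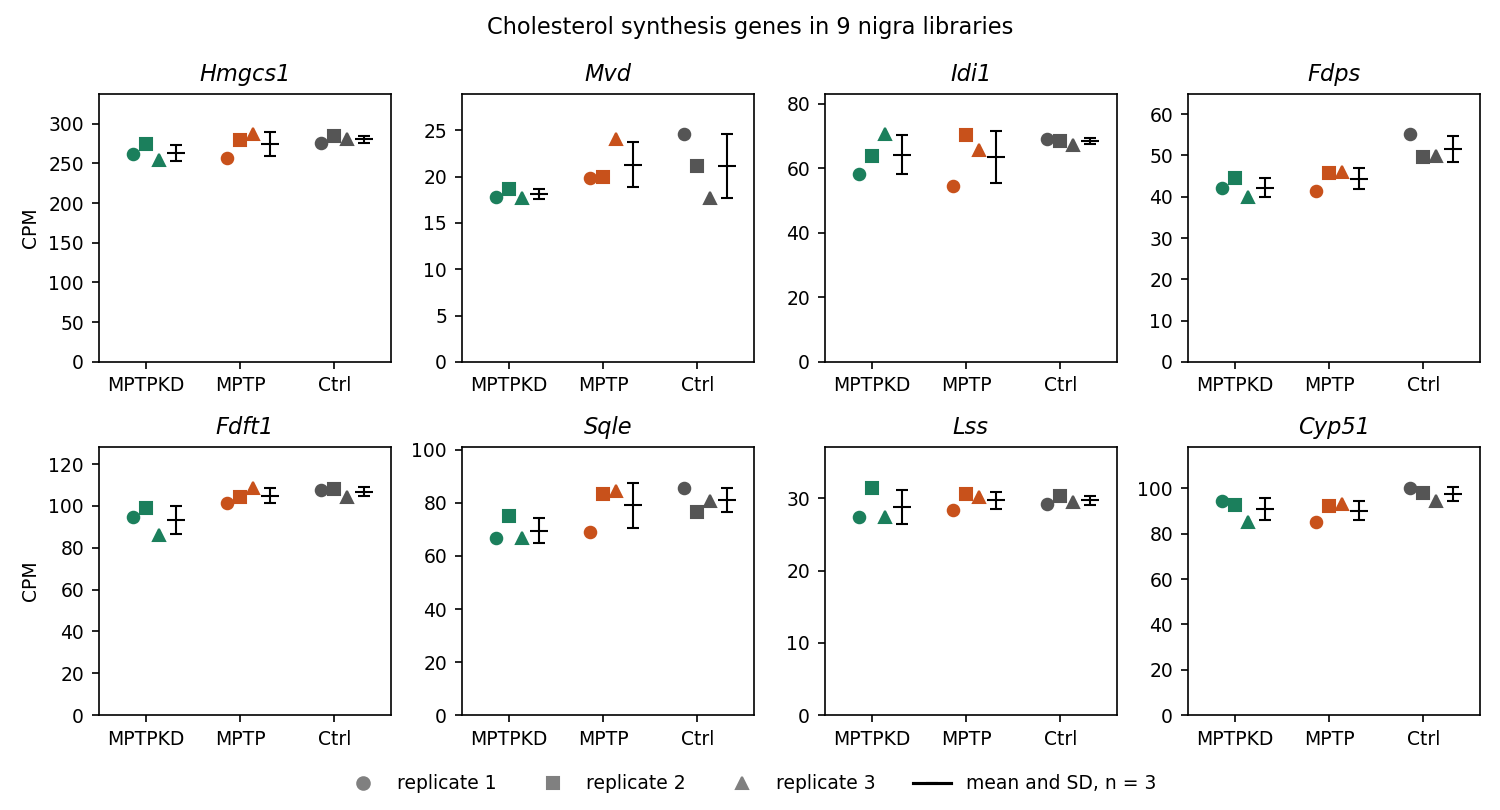
Level of each gene in CPM (vertical axes start at 0) in the 9 libraries, with 1 point per library, the marker shape giving the replicate number and the bar the mean and SD of 3. The diet libraries of Fdft1 lie at 86.0 to 98.9 CPM, below the lowest MPTP library at 101.6 CPM and the lowest Ctrl library at 104 CPM.

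The first steps make mevalonate and the isoprene unit. Hmgcs1 (ENSMUSG00000093930, chromosome 13, 119690379 to 119708260, GRCm38, plus strand), the cytosolic synthase that joins acetyl-CoA to acetoacetyl-CoA, had 262, 274 and 254 CPM in the MPTPKD libraries, 257, 280.0 and 286 CPM in the MPTP libraries, and 276, 284 and 281 CPM in the Ctrl libraries. The diet libraries were all below the Ctrl libraries, with MPTP 1 as low as they were and MPTP 2 and 3 at the Ctrl level. Its log2 fold change was -0.060 for MPTPKD against MPTP (95% interval -0.17 to 0.050) and -0.09 for MPTPKD against Ctrl (-0.20 to 0.020). Of the 5 promoter windows, its own is the one with an exact match to TCACNCCAC.

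Mvd (ENSMUSG00000006517, chromosome 8, 122433601 to 122443422, minus strand), which decarboxylates mevalonate diphosphate to isopentenyl diphosphate, had 17.8, 18.7 and 17.8 CPM in MPTPKD, 19.9, 19.96 and 24.1 CPM in MPTP, and 24.6, 21.1 and 17.7 CPM in Ctrl. The diet libraries lay below all MPTP libraries and close to each other, but Ctrl 3 was as low as they were. Its log2 fold change for MPTPKD against MPTP was -0.24, with an interval of -0.49 to 0.021, the widest of the 8 genes in that comparison. Idi1 (ENSMUSG00000058258, chromosome 13, 8885501 to 8892451, plus strand), which interconverts the pair of 5-carbon isomers, had 58.3, 63.9 and 70.5 CPM in MPTPKD, 54.6, 70.2 and 65.7 CPM in MPTP, and 69.1, 68.5 and 67.3 CPM in Ctrl. The Ctrl libraries were close together, and both other groups spread around and below them, so that all groups overlapped.

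Fdps, Fdft1 and Sqle build squalene and oxidise it, and they held the lowest values of the diet group relative to Ctrl together with Mvd. Fdps (ENSMUSG00000059743, chromosome 3, 89093588 to 89101959, minus strand), farnesyl diphosphate synthase, had 42.1, 44.5 and 39.97 CPM in MPTPKD, 41.4, 45.6 and 45.9 CPM in MPTP, and 55.1, 49.6 and 49.9 CPM in Ctrl. Both groups given the toxin lay below every Ctrl library and overlapped each other. The log2 fold change was -0.29 for MPTPKD against Ctrl (SE 0.0719, adjusted p = 0.74 by edgeR), -0.22 for MPTP against Ctrl (SE 0.0718, adjusted p = 0.893) and -0.071 for MPTPKD against MPTP (SE 0.0722, adjusted p = 0.841).

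Fdft1 (ENSMUSG00000021273, chromosome 14, 63145150 to 63179578, minus strand), squalene synthase, which commits farnesyl units to sterols, had 94.5, 98.9 and 86.0 CPM in MPTPKD, 101.6, 104 and 109 CPM in MPTP, and 108, 108 and 104 CPM in Ctrl. The diet libraries were below all 6 others, and the MPTP and Ctrl libraries overlapped. The log2 fold change was -0.17 for MPTPKD against MPTP (95% interval -0.30 to -0.043, adjusted p = 0.625 by edgeR), -0.20 for MPTPKD against Ctrl (-0.32 to -0.070, adjusted p = 0.74) and -0.026 for MPTP against Ctrl (-0.15 to 0.10). These intervals are for 1 gene and are not adjusted over genes. Over the 17 alternative settings the value for MPTPKD against MPTP lay between -0.21 and -0.12, and the adjusted p between 0.408 and 0.891.

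Sqle (ENSMUSG00000022351, chromosome 15, 59315077 to 59331192, plus strand), squalene epoxidase, a rate-limiting enzyme after squalene, had 66.8, 74.9 and 66.7 CPM in MPTPKD, 69.2, 83.5 and 84.5 CPM in MPTP, and 85.7, 76.7 and 80.6 CPM in Ctrl. The diet libraries were below every Ctrl library, and MPTP 1 stood among them while MPTP 2 and 3 did not. Taken by replicate number, each diet library was below the MPTP library of the same number for Sqle, and likewise for Mvd and Fdft1, but not for the other 5 genes. Its log2 fold change was -0.19 for MPTPKD against MPTP (SE 0.0797, adjusted p = 0.63 by edgeR) and -0.22 for MPTPKD against Ctrl (SE 0.0796, adjusted p = 0.74).

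Lss and Cyp51 form the sterol ring and begin to trim it. Lss (ENSMUSG00000033105, chromosome 10, 76531588 to 76557138, plus strand), lanosterol synthase, had 27.4, 31.5 and 27.4 CPM in MPTPKD, 28.4, 30.6 and 30.1 CPM in MPTP, and 29.3, 30.4 and 29.5 CPM in Ctrl. All groups overlapped, and its 95% intervals ran from -0.21 to 0.12 for MPTPKD against MPTP and from -0.17 to 0.17 for MPTP against Ctrl. Cyp51 (ENSMUSG00000001467, chromosome 5, 4081145 to 4104746, minus strand), the cytochrome P450 that removes a methyl group from lanosterol, had 94.4, 92.9 and 85.2 CPM in MPTPKD, 85.2, 92.2 and 93.0 CPM in MPTP, and 100.3, 97.8 and 94.5 CPM in Ctrl. Both groups given the toxin lay below the Ctrl libraries, MPTPKD by a margin of the last printed digit, and they overlapped each other (log2 fold change 0.011, interval -0.12 to 0.14).

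**Figure D2:**
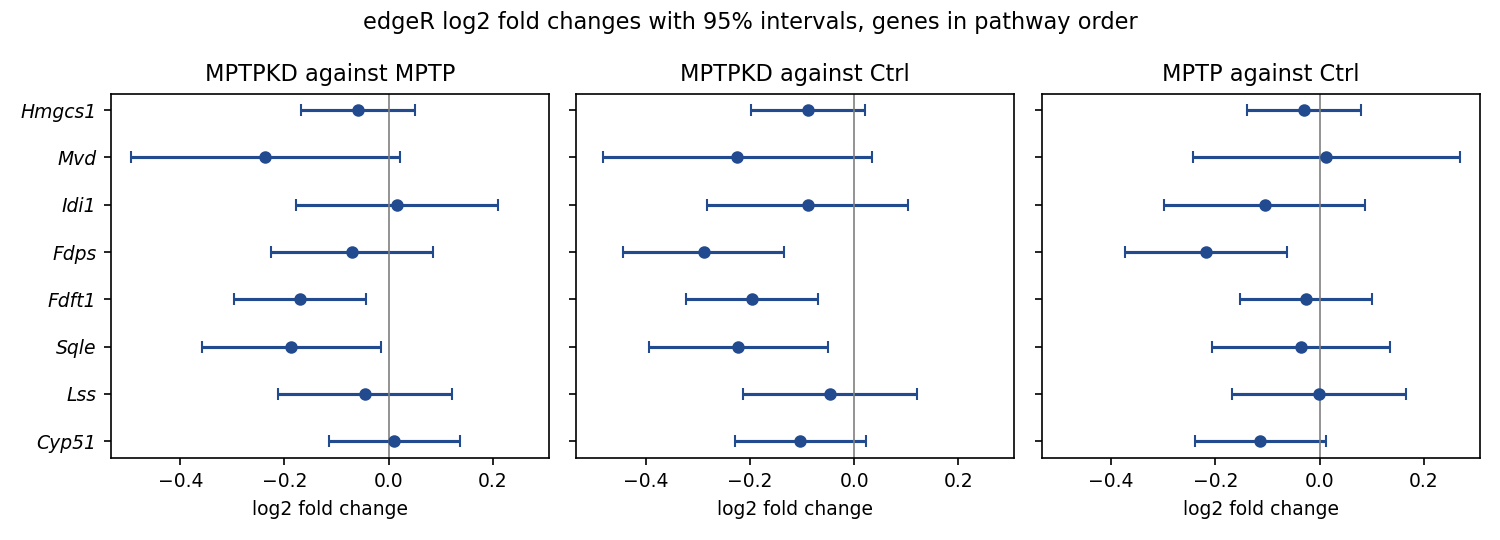
edgeR log2 fold changes (horizontal axes) of the 8 genes in pathway order, with 95% intervals that are not adjusted over genes, in the 3 comparisons. In MPTPKD against Ctrl all 8 points lie left of 0, from -0.29 for Fdps to -0.046 for Lss, and in MPTP against Ctrl all but Fdps have intervals that include 0.

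The medians leaned on single libraries. Without MPTP 1 the median for MPTP against Ctrl was 0.0070 in place of -0.033, and that for MPTPKD against MPTP was -0.11 in place of -0.065. The median for MPTP against Ctrl was -0.058 without MPTP 2, -0.083 without MPTP 3 and -0.070 without Ctrl 3. The median for MPTPKD against MPTP was also -0.11 without MPTPKD 2 and -0.040 without MPTP 3. For MPTPKD against Ctrl it lay between -0.18 and -0.097, with the value closest to 0 without Ctrl 1.

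Within a group the genes kept a common order of libraries. MPTP 1 was the lowest of its group for 8 of 8 genes, and MPTP 3 the highest for 6. MPTPKD 2 was the highest of its group for 6 genes and the lowest for none, and MPTPKD 3 the lowest for 6. In Ctrl the order was weaker, with Ctrl 1 highest for 5 genes and Ctrl 3 lowest for 4. Such orders were not particular to these genes. Of 10 mature oligodendrocyte markers, Ctrl 2 was highest for 10 and MPTPKD 2 for 9. MPTP 1 was lowest for 6 of 8 tested uptake and control genes, and for 7 of 13 other synthesis genes. The mean log2 level of the 8, with the mean of Ctrl at 0, was -0.18, -0.088 and -0.20 in MPTPKD, -0.17, -0.029 and 0.0072 in MPTP, and 0.055, -0.0050 and -0.050 in Ctrl. This mean was lower in each diet library than in the MPTP library of the same number, by the least in number 1. Summed over the genes the level came to 648 to 699.5 CPM in MPTPKD, 657.5 to 739 CPM in MPTP and 725 to 747 CPM in Ctrl.

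Markers of neighbouring tissue also differed between libraries of a group. MPTP 1, where the 8 genes were lowest of their group, had a summed level of the 4 thalamic markers (highest FPKM for Prkcd and Ramp3) of 689 CPM, against 445 and 310 CPM in MPTP 2 and 3, and raphe serotonin markers of 17.7 CPM, against 143 and 90.7 CPM. In MPTPKD the thalamic markers summed to 607, 440 and 382 CPM and the raphe markers to 22.1, 170 and 127 CPM, while the 8 genes were low in libraries 1 and 3. The part of this mix in the order of libraries was not tested.

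The sums of mature oligodendrocyte and astrocyte markers were no lower in the diet group. The 10 mature oligodendrocyte markers summed to 13020 to 14330 CPM in MPTPKD, 10790 to 13250 CPM in MPTP and 10220 to 12450 CPM in Ctrl, and all 10 had a positive log2 fold change in MPTPKD against Ctrl, with a median of 0.25 and none called. The 7 astrocyte markers summed to 3724 to 3906 CPM in MPTPKD, 3613 to 3786 CPM in MPTP and 3452 to 3659 CPM in Ctrl, and 5 of 7 were above 0 and 2 below in MPTPKD against Ctrl, with a median of 0.029 and none called. The astrocyte marker with the highest log2 fold change, named after its values were seen, was Gfap, an intermediate filament gene. It had 219, 295.5 and 286 CPM in MPTPKD, 169.9, 222.5 and 194.6 CPM in MPTP, and 151, 205 and 153 CPM in Ctrl. Its diet libraries were above all Ctrl libraries and overlapped MPTP (log2 fold change 0.66 against Ctrl, SE 0.176, adjusted p = 0.74 by edgeR). By FPKM, the most abundant oligodendrocyte markers, Mbp and Mobp, had log2 fold changes of 0.26 and 0.33 in MPTPKD against Ctrl, and the most abundant astrocyte markers, Aldoc and Slc1a2, 0.029 and 0.12. All 6 microglia markers were above 0 as well, with a median of 0.19 and none called. For MPTPKD against MPTP the median was 0.065 for mature oligodendrocyte markers (8 above 0, 2 below) and 0.023 for astrocyte markers (5 above, 2 below). The 4 oligodendrocyte precursor markers (highest FPKM for Pdgfra and Sox6) had a median of -0.13 there, with 3 below 0, 1 above and 0 called. They summed to 131.5 to 146.3 CPM in MPTPKD, 138.7 to 151.6 CPM in MPTP and 133.4 to 140.4 CPM in Ctrl. No marker of these lists was at 0 in any library. The part of these cell types in the result was not tested.

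**Figure D3:**
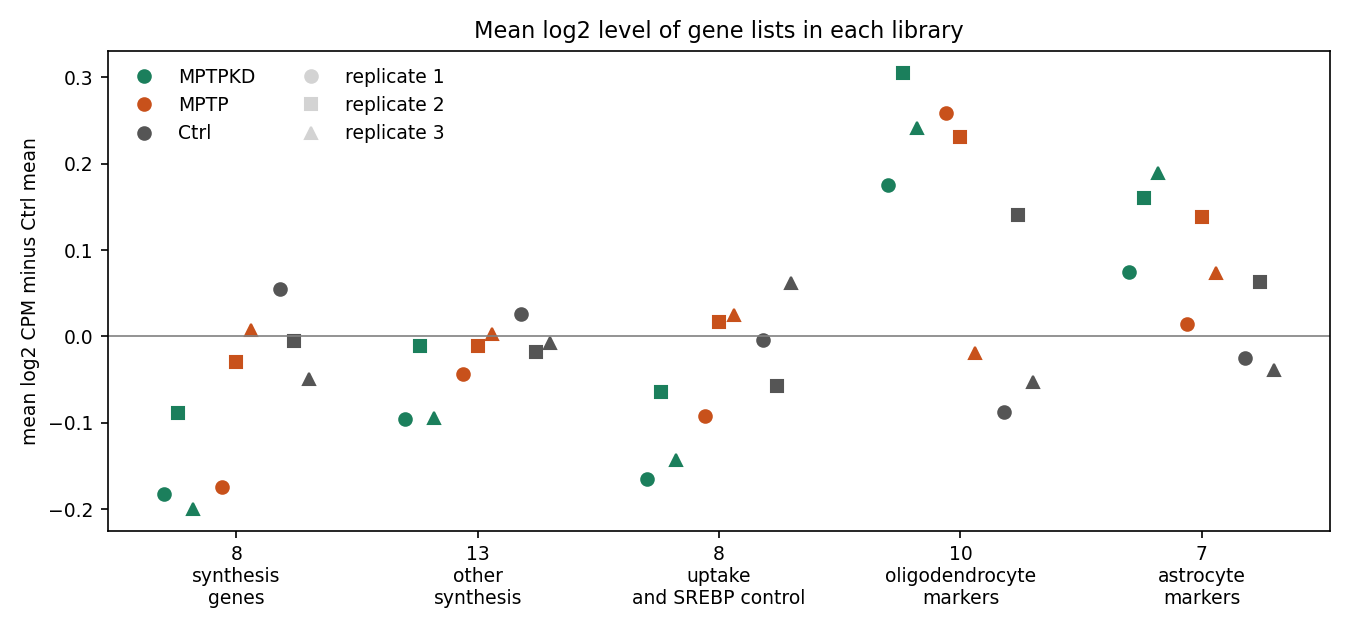
Mean log2 CPM of 5 gene lists in each library, with the mean of the Ctrl libraries set to 0 (vertical axis), coloured by group and shaped by replicate number. The 8 synthesis genes lie at -0.20 to -0.088 in MPTPKD and at -0.050 to 0.055 in Ctrl, and the oligodendrocyte markers at 0.18 to 0.31 in MPTPKD and -0.088 to 0.14 in Ctrl.

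The rest of the route was read from a list of 13 further synthesis genes. For MPTPKD against Ctrl 8 of 13 were below 0 and 5 above, with a median of -0.079, 0 called, and all diet libraries below all Ctrl libraries for 3 of them (6.4% of all genes). Among those 3 were Acat2, which makes acetoacetyl-CoA, and Msmo1, the C4-methylsterol oxidase. Acat2, named after its values were seen, had a log2 fold change of -0.20. Msmo1 had log2 fold changes of -0.18 for MPTPKD against Ctrl and -0.046 for MPTPKD against MPTP. Tm7sf2 and Pmvk, further genes of high FPKM in this list, had values of 0.041 and -0.045 for MPTPKD against Ctrl. MPTPKD and Ctrl differ in both toxin and diet. For MPTPKD against MPTP, 9 of 13 were below 0 and 4 above, with a median of -0.068 and 0 called. The 8 genes had a median of -0.065 there. All diet libraries lay below all MPTP libraries for 3 of the 13 (7.1% of all genes) and above for 1 (6.64%).

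Likeness to the set was measured as Pearson's r over the 9 libraries with the mean z-score of the 8 genes, for 12800 genes. Among the 8 genes most like the set, with r from 0.921 to 0.967, were Riiad1, Gm49380, Naa80, Tcaf1, N4bp2l1 and Rbm4b. The 4 least like it were Ube2q2, 2210011C24Rik, Frmd4a and Mfap1a, with r from -0.940 to -0.926. Further down the order came Insig1 at number 45 (r = 0.845) and Srebf2 at number 108 (r = 0.802). These values are a description over 9 libraries that share scaling and tissue mix. Riiad1 was low throughout, at 0.57 to 2.2 CPM. Gm49380 was nearly absent in MPTPKD 1, MPTPKD 3 and MPTP 1, at 0.17, 0.20 and 0.28 CPM. It had 7.58 to 13.6 CPM in the other libraries, so its r reflects a split of libraries rather than a graded level. The cause of that split was not tested.

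Uptake and control genes were counted on a list of 9, of which 8 were tested. Against Ctrl, 8 of 8 in MPTPKD had negative values, with a median of -0.11, 0 called, and all diet libraries below all Ctrl libraries for 3 (6.4% of all genes). Against MPTP, 7 of 8 were negative, with a median of -0.079, 0 called, and all diet libraries below all MPTP libraries for 3 (7.1% of all genes). Srebf2, which encodes SREBP2, had 242, 243 and 225 CPM in MPTPKD, 243, 256 and 262 CPM in MPTP, and 249.7, 252 and 257 CPM in Ctrl. The diet libraries were below all others, though MPTPKD 2 and MPTP 1 were nearly equal (log2 fold change -0.10 against MPTP and -0.099 against Ctrl, adjusted p = 0.649 and 0.749 by edgeR). Insig1, an SREBP target that retains the SREBP complex in the endoplasmic reticulum, had values of -0.16 against MPTP and -0.16 against Ctrl. Srebf1, which encodes the SREBP of fatty acid synthesis and was named after its values were seen, had -0.19 against MPTP and -0.12 against Ctrl. Insig2 had -0.052 and -0.11, and Scap, the escort of SREBP, -0.056 and -0.035.

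Lists of genes that move cholesterol out of cells or convert it had medians above 0. Of 7 efflux and LXR genes, 4 were above 0 and 3 below in MPTPKD against Ctrl, with a median of 0.049 and 0 called. Abca1, which passes cholesterol to apolipoproteins and was named after its values were seen, had 61.0, 64.6 and 71.9 CPM in MPTPKD, 57.0, 59.7 and 56.4 CPM in MPTP, and 62.4, 52.9 and 60.8 CPM in Ctrl. Its diet libraries were above all MPTP libraries (log2 fold change 0.19, adjusted p = 0.63 by edgeR) and overlapped Ctrl. The genes of highest FPKM in this list, Apoe, Nr1h2, Abcg4 and Abcg1, had values of -0.011, -0.039, 0.049 and -0.0041 in MPTPKD against Ctrl.

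All 3 tested genes of cholesterol turnover had positive values in MPTPKD against Ctrl, with 0 called and a median of 0.28, and all 3 in MPTP against Ctrl, with 0 called and a median of 0.23. Cyp46a1, the neuronal enzyme that makes 24-hydroxycholesterol, averaged 111 ± 12.04 CPM in MPTPKD, 121 ± 16.4 CPM in MPTP and 99.0 ± 11.2 CPM in Ctrl (SD, n = 3 each). Cyp27a1, which makes 27-hydroxycholesterol, averaged 13.3 ± 1.27 CPM in MPTPKD, 12.6 ± 1.80 CPM in MPTP and 10.8 ± 0.920 CPM in Ctrl. Cyp7b1, which hydroxylates oxysterols further, averaged 9.06 ± 0.377 CPM in MPTPKD, 8.55 ± 0.840 CPM in MPTP and 7.47 ± 0.380 CPM in Ctrl. All diet libraries of Cyp27a1 and Cyp7b1 were above all Ctrl libraries (6.28% of all genes), and those of Cyp46a1 overlapped them. The fourth gene listed, Ch25h, was below the minimum level.

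Lipoprotein receptors, storage genes and the non-sterol branch had medians closer to 0 than that of the 8 synthesis genes in MPTPKD against Ctrl. Against MPTP their medians were -0.058, 0.032 and 0.0455, beside -0.065 for the 8 synthesis genes. For MPTPKD against Ctrl the medians were -0.048 for 5 tested brain lipoprotein receptors, 0.022 for 5 transport and storage genes and 0.0051 for 8 genes of the non-sterol isoprenoid branch, with 0 called in each. Lrp1, the receptor gene of highest FPKM, had a log2 fold change of -0.17 for MPTPKD against MPTP (adjusted p = 0.609 by edgeR) and -0.094 for MPTPKD against Ctrl. Sorl1, Lrp8 and Vldlr had -0.058, -0.16 and 0.041 against MPTP, and -0.16, -0.048 and 0.031 against Ctrl. Npc2, Npc1, Stard3 and Lipa, which carry or free cholesterol inside the cell, had 0.089, 0.022, 0.048 and -0.080 against Ctrl. Fnta, a farnesyltransferase subunit, and Dhdds and Nus1, which make dolichol, had -0.039, 0.029 and 0.012 against Ctrl. Ggps1, which draws farnesyl diphosphate toward geranylgeranyl groups and away from squalene, had -0.0013 against Ctrl, beside -0.20 for Fdft1, the enzyme that draws it toward sterols. The difference between the fold changes of those 2 genes was not tested, and RNA levels do not measure how farnesyl diphosphate is used. In MPTPKD against Ctrl, 4 of the 8 non-sterol genes were below 0 and 4 above, from -0.18 to 0.14. All diet libraries lay below all Ctrl libraries for 1 of them (6.4% of all genes) and above for 1 (6.28%).

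**Figure D4:**
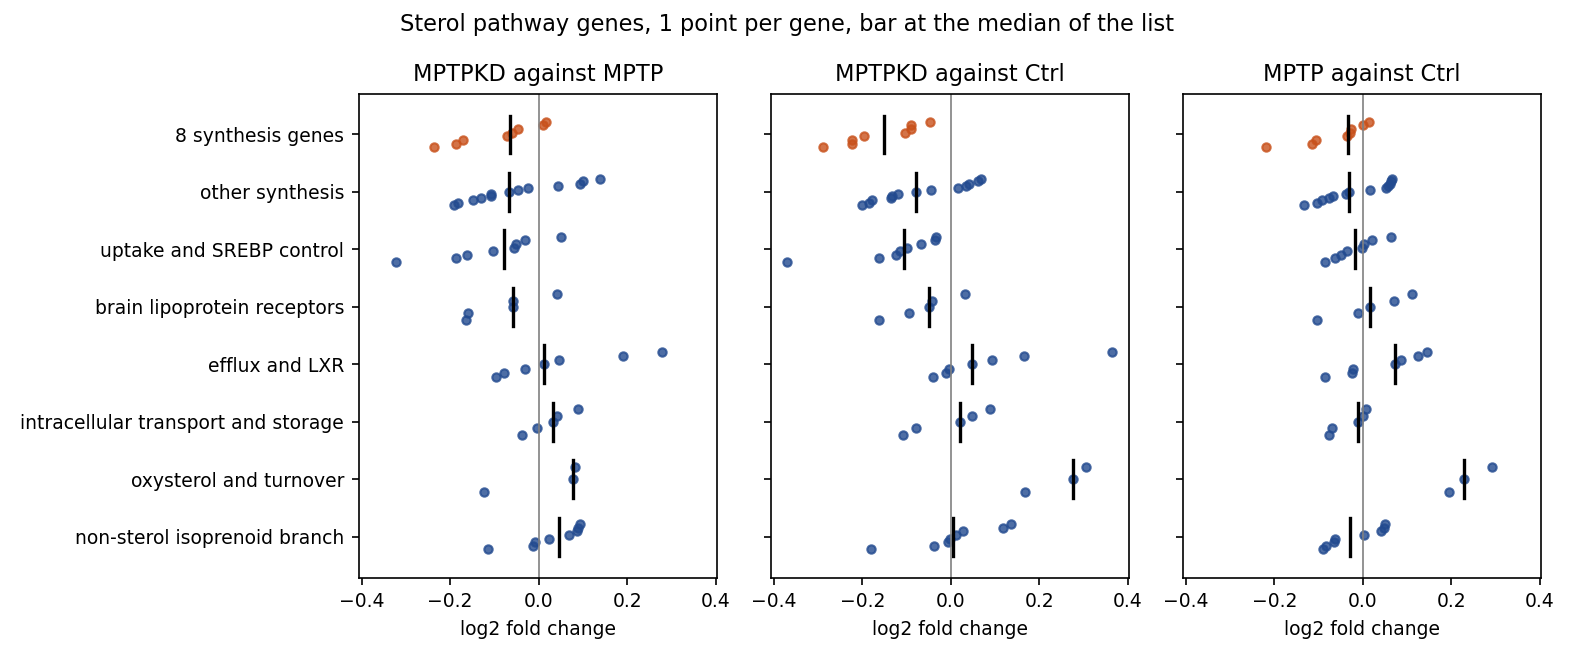
edgeR log2 fold changes (horizontal axes) of the 8 synthesis genes and 49 other tested genes of sterol metabolism, with 1 point per gene and a bar at the median of each list, in the 3 comparisons. In MPTPKD against Ctrl the medians are -0.15 for the 8 synthesis genes, -0.11 for uptake and SREBP control and 0.28 for oxysterol and turnover, and no point passed the test.

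How the reads were assigned limits some of these values. By GENCODE M21, exons of Fdft1 overlap those of Ctsb on the other strand over 774 of 4227 bases, and exons of Cyp51 overlap those of Akap9 over 166 of 4415 bases. Exons of Fdps are shared with Gm43738 on the same strand over 1124 of 4208 bases. Hmgcs1, Idi1 and Lss overlap less well known gene models on the other strand, and Mvd and Sqle overlap none. The strand setting is not given in the sources used here, so reads of overlapping genes cannot be told apart. Count and FPKM implied a transcript length that differed between libraries by a factor of 1.01 for Fdps to 1.06 for Fdft1.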

How the data were processed

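RNA from the substantia nigra pars compacta was sequenced in 9 libraries, prepared per the labels with a NEBNext Ultra kit. The authors deposited, per the file headers, read counts and FPKM for 27339 genes in 1 table, of which 22036 carry Ensembl identifiers and 5303 the authors' own. Another 10 lines without a gene were dropped. The submitters' processing notes name mm10 (GRCm38) as the build, while aligner, counter, annotation and strandedness are not given in the sources used. GENCODE M21 gave coordinates for 22022 identifiers and the symbols of 27 genes that the table shows as dates.

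A mean of at least 0.5 FPKM left 14949 genes for edgeR 4.0.16 in R 4.3.3 (quasi-likelihood test, robust, TMM scaling), fitted to all 9 libraries at once, with Benjamini-Hochberg adjustment and a threshold of 0.05. Intervals are 95% intervals from the model's SE. DESeq2 1.42.0, limma 3.58.1 on log2(FPKM + 0.1 or 1), other scalings, filters and subsets of libraries were the alternatives. The test was checked on simulated counts, where every changed gene had a larger fold change than any member in the edgeR fit to all 9 libraries. That check therefore does not cover changes as small as those of the members. Library totals were 33.2 to 40 M counts. Libraries were grouped by their titles, and none agreed within sampling noise with another of its group (chi-square per degree of freedom at least 11.77). The members and lists were chosen with earlier results of these data known. Genes outside the set were named as the 4 of highest mean FPKM in a pathway list, the 2 of highest mean FPKM in a marker list (given for the lists described), Th and Slc6a3, and the 8 most and 4 least like the set. Any other is said to be named after its values were seen. Results for some genes that these rules name are not reported here.

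Same-numbered libraries of MPTPKD and MPTP deviated together from their group means (r = 0.107 to 0.182), above the minimum of 0.1 for treating the numbers as pairs, a judgement from the data alone. Between MPTPKD and Ctrl (-0.00735 to 0.0783) and between MPTP and Ctrl (-0.151 to 0.0472) they did not. Libraries of unlike number had r of -0.15 to 0.0413 between MPTPKD and MPTP. Elsewhere unlike numbers also passed that minimum, with r = 0.186 for MPTP 1 and Ctrl 2 and 0.144 for MPTP 2 and Ctrl 3. Passing it therefore does not establish that libraries are pairs.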

Additional observations from a re-analysis of the deposited data

How the results depend on the processing

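None of the 8 synthesis genes was called under any of the 17 alternatives in any of the 3 comparisons. The number of all genes called was small and moved with the tool. DESeq2 called 19 in MPTPKD against MPTP, 16 in MPTPKD against Ctrl and 14 in MPTP against Ctrl, where edgeR called 0, 0 and 2. In MPTP against Ctrl it was 0 without robust moderation and 0 with limma at either pseudocount. In MPTPKD against Ctrl it was 1 with no filter on low values, 4 with only the 2 groups compared and 5 with the replicate block. The replicate block gave 0 calls in MPTPKD against MPTP, where a pairing by number was judged from the data alone. It gave 3 in MPTP against Ctrl, and changed no call of a member. With 1 library left out in turn, 0 to 1 genes were called in MPTPKD against MPTP, 0 to 4 in MPTPKD against Ctrl and 0 to 4 in MPTP against Ctrl. The median log2 fold change of the members then lay between -0.1107 and -0.0397, between -0.1765 and -0.0966, and between -0.0833 and 0.0070 in those comparisons. Values near 0 changed sign. For MPTP against Ctrl, Lss was 0.00070 with DESeq2's size factors and with DESeq2, 0.0284 and 0.0250 with limma at pseudocounts of 0.1 and 1, and -0.0196 to 0.0336 with 1 library left out, where Hmgcs1 ran from -0.0592 to 0.0165, Sqle from -0.0842 to 0.0535 and Mvd from -0.0987 to 0.1399. For MPTPKD against MPTP, limma at these pseudocounts gave -0.0094 and -0.0092 for Idi1 and -0.0109 and -0.0105 for Cyp51, and with 1 library left out Idi1 ran from -0.0796 to 0.0949 and Cyp51 from -0.0266 to 0.0540. The cause of these moves was not tested. The lowest count of a member in a library was 616, and the intervals for the members rest on 3 libraries a group.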
